A study of Arabidopsis thaliana with 12 samples.

Results

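MYB transcription factors are a large plant family whose proteins bind DNA through a MYB domain, in most members built from a pair of repeats and then called R2R3. The members considered here are the protein-coding genes on the nuclear chromosomes whose symbol in the gene annotation is exactly MYB followed by a number. There were 115 of them among 27444 protein-coding genes. R2R3 MYB proteins switch on or repress whole pathways, among them phenylpropanoid and flavonoid synthesis, glucosinolate synthesis and secondary wall formation, and they also direct cell fate, pollen development and stress responses. Many act with bHLH proteins and a WD40 protein in one complex. MAC3A is a U-box protein of the plant counterpart of the Prp19 splicing complex, named MOS4-associated complex, which also holds CDC5, itself a MYB-domain protein.

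Chromatin immunoprecipitation followed by sequencing (ChIP-seq), which recovers the DNA that lies close to a protein, was used to map MAC3A in Arabidopsis thaliana seedlings of the genotype labelled Columbia-4. There were 3 MAC3A libraries titled dark and 3 titled blue, and each had its own peak list. A further 6 samples titled input control, 3 per condition, were not analysed here. The growth notes describe plants expressing MAC3A-GFP, with GFP-only plants as the control, and give 6 days of blue light for every sample, while anti-FLAG M2 is named as the antibody. The condition of each library therefore rests on its title, and the light treatment of the dark seedlings is not given in the sources used here. The promoter of the transgene, and whether replicates came from separate sowings, are not given either, so a spread between libraries may be technical. The dark lists held 1169 to 1285 peaks and the blue lists 1505 to 1820, and the number of sequenced reads behind them is unknown. The MAC3A gene itself (AT1G04510) had a summit in no dark library and in 1 blue library.

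MAC3A peaks were found at a small set of MYB genes, and 6 of these had a peak in all 6 libraries. A gene was counted in a library when a peak summit lay inside it or no more than 1 kb beyond one of its ends, and called bound in a condition when this held in at least 2 of the 3 libraries. In the dark 10 of the 115 MYB genes were bound, where 5.62% of all protein-coding genes were. In blue light 8 were bound, where 7.37% of all genes were. As shares these are 8.70% of the MYB genes in the dark and 6.96% in blue light. Both conditions shared 7 members, which is 6.09% of the 115, beside 4.16% of all genes. These 7 were 70% of the members bound in the dark and 87.5% of those bound in blue light. Over all genes 1141 were bound in both, out of 1541 bound in the dark and 2023 bound in blue light. The genes bound in either condition were MYB6, MYB7, MYB32, MYB4, MYB61, MYB50, MYB77, MYB109, MYB120, MYB305 and MYB59, 11 members where 8.83% of all genes were bound. Another 6 members, MYB1, MYB3, MYB20, MYB30, MYB34 and MYB51, had a summit in 1 library of a condition at most, and 4 of these had it in 1 library in all, as did 4.21% of all genes. No summit was listed at the other 98 members, and 13.7% of all protein-coding genes had a summit in any library against 17 of the 115 members.

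**Figure D1:**
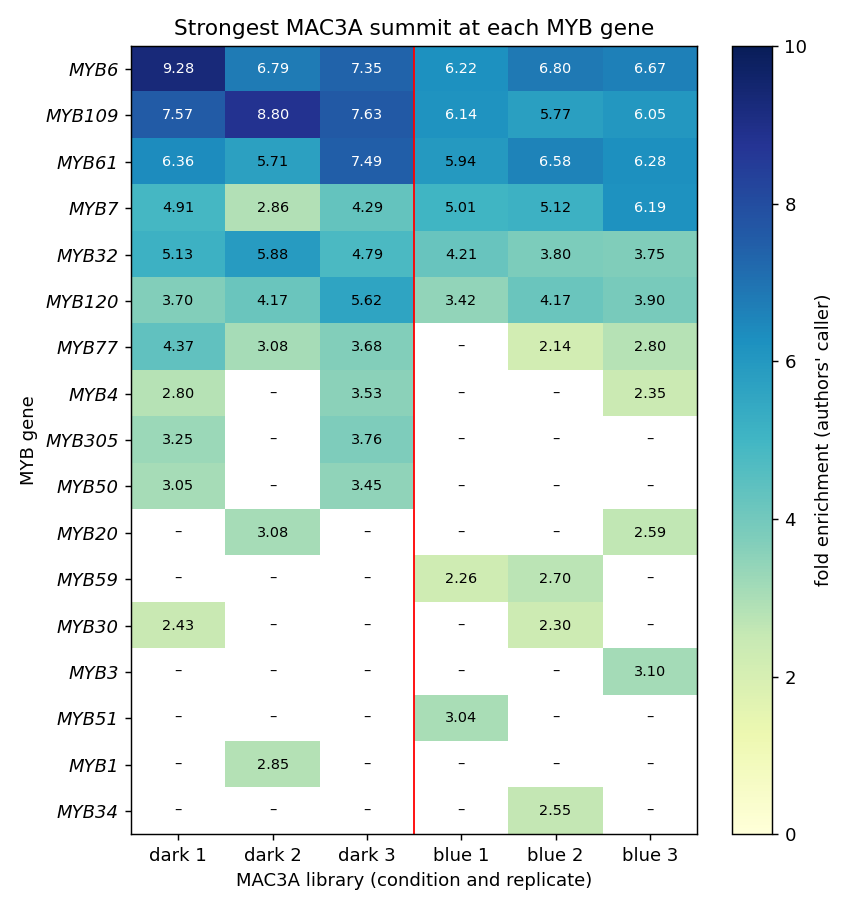
Fold enrichment of the strongest MAC3A summit (colour and printed value, as the authors' caller gave it) at each of the 17 MYB genes with a summit, in 3 dark and 3 blue libraries separated by the red line; a dash marks no summit. MYB6, MYB109, MYB61, MYB7, MYB32 and MYB120 carry a value in all 6 libraries, and each row below them has at least 1 dash.

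Counted library by library, the number of MYB genes with a summit did not separate the conditions. It was 11, 9 and 10 in dark replicates 1 to 3 and 8, 10 and 10 in blue replicates 1 to 3. The groups overlapped. The dark mean was 10 ± 1.00 and the blue mean 9.33 ± 1.15 (SD, n = 3 each), a difference of -0.67 genes that was smaller than the spread between replicates (exact permutation test, two-sided, p = 0.70, where 0.10 is the smallest p that 3 libraries against 3 can give). Over all protein-coding genes the share with a summit averaged 6.01 ± 0.267% over the dark and 7.88 ± 0.731% over the blue libraries, without overlap (SD, n = 3 each), with p = 0.10 by the same exact two-sided test. The share of MYB genes with a summit was 1.30 to 1.53 times the share of all genes in the dark libraries and 0.950 to 1.14 times in the blue libraries. Calls were repeated with peaks of −log10 q 5 or more (the q limit), with peaks of fold 3 or more (the fold limit) and with every list trimmed by −log10 q to as many peaks as the shortest one holds (trimmed lists). In trimmed lists the ratios were 1.35 to 1.52 for dark and 1.03 to 1.35 for blue libraries, and under the q limit 1.56 to 2.14 and 1.15 to 1.61. The conditions were therefore apart with whole lists, met near 1.35 in trimmed lists and overlapped under the q limit. The ratios also moved with the window. With gene bodies only they were 1.95 to 2.36 for dark and 1.53 to 1.76 for blue libraries, and with 3 kb at the ends they were 0.777 to 0.998 and 0.665 to 0.781, so that none exceeded 1.

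**Figure D2:**
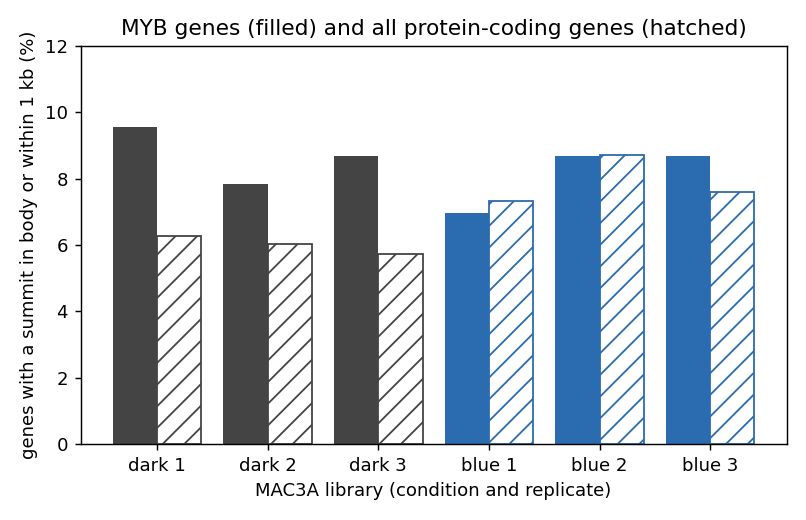
Share of MYB genes (filled bars) and of all protein-coding genes (hatched bars) with a MAC3A summit inside the gene or up to 1 kb beyond it, in percent, for each dark (grey) and blue (blue) library. The filled bar is above the hatched bar in all 3 dark libraries, while in the blue libraries the filled share was 0.950 to 1.14 times the hatched one. This order holds for the 1 kb window plotted, and with 3 kb no filled share would exceed the hatched one.

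In the list of MYB genes of flavonol and phenylpropanoid synthesis, MYB6, MYB7 and MYB32 were bound in both conditions and MYB4 in the dark. Of the 12 members in the annotation 4 were bound in the dark and 3 in blue light, beside 5.62% and 7.37% of all genes, and 5 had a summit in any library, beside 13.7%. MYB3 was the fifth, with a summit in 1 library. All 5 belong to subgroup 4 of the R2R3 family, which is known for repressor proteins. This grouping was made after the values were seen and takes no test. The other 7 listed members had no summit in any library. They include MYB11, MYB12 and MYB111, the activators of flavonol synthesis, and MYB90, MYB113 and MYB114, activators of anthocyanin synthesis.

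MYB6 (AT4G09460), a member of subgroup 4, carried the best-ranked MYB peak in 4 of the 6 libraries. Its peaks lay on chromosome 4 between 5992869 and 5994018 (TAIR10). The fold enrichment over the caller's local background was 9.28, 6.79 and 7.35 in dark replicates 1 to 3 and 6.22, 6.80 and 6.67 in blue replicates 1 to 3. The authors' caller computed each fold within its own library, so folds of different lists are set side by side but were not tested against each other. Ranked by the authors' −log10 q, the strongest summit stood between place 58 and place 80 of its list, within the first 2.71% to 5.83% of summits. All 6 strongest summits fell within 60 bp of each other inside the gene body.

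MYB7 (AT2G16720), a repressor of flavonol synthesis genes, was present in all libraries and stood higher in the blue lists than in the dark ones. Its fold was 4.91, 2.86 and 4.29 in dark replicates 1 to 3 and 5.01, 5.12 and 6.19 in blue replicates 1 to 3. Every blue value was above every dark value, whereas the median fold of a whole list was 3.33 to 3.37 in the dark and 2.78 to 2.85 in blue light. Its summit held places 123, 312 and 151 in the dark lists and 75, 70 and 53 in the blue lists, and the lowest value in both measures was that of dark replicate 2. In blue replicate 3 it was the best-ranked MYB peak. Under the fold limit MYB7 had a summit in 2 dark and 3 blue libraries. The peaks lay on chromosome 2 between 7255782 and 7256760, with all strongest summits within 45 bp.

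MYB32 (AT4G34990), which affects pollen wall formation and lignin and flavonoid genes, showed the opposite order. Its fold was 5.13, 5.88 and 4.79 in dark replicates 1 to 3 and 4.21, 3.80 and 3.75 in blue replicates 1 to 3, again without overlap. Its place by −log10 q nevertheless overlapped between conditions as a share of the list, at the first 12.4% to 15.9% of summits in the dark lists and the first 13.3% to 17.6% in the blue lists. The peaks lay on chromosome 4 between 16661533 and 16662324. In blue replicate 2 the peak was split into a pair of summits on either side of the place where the other libraries had 1 summit, which widened the span of the strongest summits to 232 bp.

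MYB4 (AT4G38620), a repressor of the cinnamate 4-hydroxylase gene that limits sinapate ester sunscreens, was bound in the dark and not in blue light. It had summits in dark replicates 1 and 3 and in blue replicate 3. The folds of these strongest summits were 2.80, 3.53 and 2.35. In dark replicate 3 the strongest summit lay 556 bp beyond the gene, with a second, weaker one in the body, where the other libraries had theirs. The peaks over the body lay on chromosome 4 between 18053472 and 18054125 and were among the weaker ones of their lists, with −log10 q of 2.61, 2.93 and 3.42. The dark call of MYB4 rested on dark replicates 1 and 3 alone, and it ended under the q limit, under the fold limit and in trimmed lists.

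MYB3 (AT1G22640), a repressor of phenylpropanoid genes, had 1 summit, in blue replicate 3, with a fold of 3.10 and a −log10 q of 5.15. It lay in the gene body. The gene titled HOS10, which the annotation gives MYB8 as another name and which also belongs to subgroup 4, is no member by its symbol and had no summit in any library.

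Of the MYB genes of secondary wall formation, MYB61 was bound in both conditions and its close relative MYB50 in the dark. These were 2 of 19 members in the dark and 1 of 19 in blue light, beside 5.62% and 7.37% of all genes. Counts in so short a list were not tested. MYB61 (AT1G09540), which acts in xylem and seed coat mucilage formation and in stomatal aperture, had a fold of 6.36, 5.71 and 7.49 in dark replicates 1 to 3 and of 5.94, 6.58 and 6.28 in blue replicates 1 to 3. The conditions overlapped, and their means of 6.52 ± 0.901 and 6.26 ± 0.321 (SD, n = 3 each) differed by less than the spread of the dark values, although whole lists had lower folds in blue light. Its peaks lay on chromosome 1 between 3086245 and 3087300 and were 769 to 1032 bp wide. The strongest summits of all 6 libraries fell within 40 bp, and 3 libraries had a second, weaker summit in the same peak.

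MYB50 (AT1G57560) had a summit in dark replicates 1 and 3, with folds of 3.05 and 3.45, and in no blue library. These peaks lay on chromosome 1 between 21317093 and 21317447, within the gene body. Its call rested on dark replicates 1 and 3 alone, and it was no longer bound under the q limit. MYB20, an activator of lignin synthesis genes, had 1 summit in the dark (replicate 2, fold 3.08) and 1 in blue light (replicate 3, fold 2.59), placed 14 bp apart. The other 16 listed genes had no summit, among them MYB46 and MYB83, the paired master switches of secondary wall formation, and MYB58 and MYB63, activators of lignin synthesis.

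In the list of stress and abscisic acid regulators, MYB77 was the sole bound member of 18, beside 5.62% of all genes in the dark and 7.37% in blue light. MYB77 (AT3G50060), which promotes auxin responses in lateral root growth, had folds of 4.37, 3.08 and 3.68 in dark replicates 1 to 3. In blue light it had no summit in replicate 1, and folds of 2.14 and 2.80 in replicates 2 and 3. All dark folds were above both blue folds, and the median fold of whole lists was likewise higher in the dark. By −log10 q the conditions overlapped, with 3.46 in dark replicate 2 and 3.76 in blue replicate 3. Their places in the list were 71.6% and 59.8%. Under the fold limit it had a summit in 3 dark and no blue libraries, under the q limit in 2 and none, and in trimmed lists in 3 and 1. The blue call rested on blue replicates 2 and 3 alone, and it also ended with gene bodies only, where 1 blue library remained. The strongest summits lay at one end of the gene, from 94.6% of the way along it, counted from the lower coordinate, to 40 bp beyond it, on chromosome 3 between 18559033 and 18559505. Of the same list MYB1 had 1 summit, in dark replicate 2 with a fold of 2.85.

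MYB59 (AT5G59780), a regulator of root growth and of potassium and nitrate transport, was the only member bound in blue light and not in the dark, a pattern that 3.21% of all genes had. With no dark library at all it shared its pattern with 2.28% of all genes. Its folds were 2.26 and 2.70 in blue replicates 1 and 2. The summits lay in the body, on chromosome 5 between 24082992 and 24083325. The call rested on blue replicates 1 and 2 alone and ended under the q limit, under the fold limit and in trimmed lists, where 1 blue library remained. It was the sole member with a summit among 13 MYB genes of cell fate and meristems, where 13.7% of all genes had one. The others include MYB0 and MYB23, which specify trichomes, MYB66, which patterns the root epidermis, and MYB37, which acts in axillary meristems.

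MYB120 (AT5G55020), which acts in the pollen tube with MYB97 and MYB101, had a summit in all 6 libraries of seedling tissue. Its fold was 3.70, 4.17 and 5.62 in dark replicates 1 to 3 and 3.42, 4.17 and 3.90 in blue replicates 1 to 3. The conditions overlapped. The peaks were 302 to 438 bp wide, narrower than at the other members present in every library, and lay on chromosome 5 between 22325932 and 22326396, with the summits 83.7% to 89.0% of the way along the gene. The neighbouring gene AT5G55040 lay 722 to 818 bp from these summits. MYB97, MYB101 and the other 10 listed genes of anthers and gametes had no summit, and these include MYB33 and MYB65, targets of miR159, and MYB21, MYB24 and MYB57 of stamen growth.

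MYB109 (AT3G55730) and MYB305 (AT3G24310) were in no role list. The MYB109 peaks were strong, with folds of 7.57, 8.80 and 7.63 in dark replicates 1 to 3 and 6.14, 5.77 and 6.05 in blue replicates 1 to 3. All dark values were above all blue values, and the median fold of whole lists was likewise higher in the dark. In dark replicate 2 this was the best-ranked MYB peak, at place 77. The strongest summits lay outside the gene, 275 to 319 bp from its lower-coordinate end, on chromosome 3 in peaks between 20680871 and 20681819. They were closer to the neighbouring gene AT3G55720, 61 to 105 bp away, and a weaker second summit of blue replicate 2 lay inside that gene. With each summit given to its nearest protein-coding gene MYB109 had none, and 9 and 7 members were bound in the dark and in blue light. The bound share of all genes was not counted under this setting. Per library, 6.96% to 8.70% of the members had a summit in the dark and 6.09% to 7.83% in blue light. The share of all genes with a summit in a library was then 4.07% to 4.38% in the dark and 5.12% to 6.08% in blue light.

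MYB305 had a summit in dark replicates 1 and 3, with folds of 3.25 and 3.76, and in no blue library. The summits lay at the upper-coordinate end of the gene, 14 bp beyond it in the first library and just inside it in the second, on chromosome 3 between 8812272 and 8812584. The call rested on dark replicates 1 and 3 alone and ended with gene bodies only and under the q limit. MYB50 and MYB305 were the 2 members bound in the dark with no blue library, a pattern of 0.969% of all genes. The remaining 15 members outside the role lists had no summit.

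The MYB genes of glucosinolate synthesis and of cuticle and suberin were not bound in either condition. With 6 and 17 members, and 8.83% of all genes bound in either condition, such counts are near the share over all genes. Of the 6 glucosinolate regulators, MYB51 had a summit in blue replicate 1 (fold 3.04) and MYB34 in blue replicate 2 (fold 2.55), both of them activators of indolic glucosinolate synthesis. MYB28, MYB29 and MYB76, the activators of the aliphatic branch, had none, nor had MYB122. Of the 17 cuticle and suberin regulators, MYB30, which promotes hypersensitive cell death and very-long-chain fatty acid synthesis, had a summit 93 bp outside the gene in dark replicate 1 and 53 bp outside it in blue replicate 2. Its folds were 2.43 and 2.30, with places in the last part of these lists, at 93.5% and 96.7%. MYB96 and MYB94, activators of wax synthesis, had no summit, and the closest to MYB96 lay 1500 bp away, outside the window.

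With whole lists no member separated the conditions fully, while MYB77 did so under the fold limit. That limit lies below the median fold of each dark list (3.33 to 3.37) and above that of each blue list (2.78 to 2.85). It therefore removes a larger share of blue than of dark summits, and the share of all genes with this pattern under it was not counted. In whole lists none had a summit in 3 dark and no blue libraries, where 0.401% of all genes did, and none in 3 blue and no dark libraries, where 1.14% of all genes did. Members bound in the dark and not in blue light were MYB4, MYB50 and MYB305, 3 of 115 where 1.46% of all genes had this pattern. Those with more dark than blue libraries numbered 5, and those with more blue than dark libraries 4, beside 3.34% and 6.62% of all genes. With 3 libraries in each condition no single gene can reach a p below 0.10, and none was tested.

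The members present in every library had the strongest and the widest peaks, although not each of their peaks exceeded those of the other members. MYB6, MYB7, MYB32, MYB61, MYB109 and MYB120 made up 6 of 115 members, where 2.7% of all protein-coding genes had a summit in all 6 libraries. Their strongest summits had folds from 2.86 to 9.28 and peak widths from 302 to 1106 bp. The other 11 members with a summit had folds from 2.14 to 4.37 and widths from 200 to 653 bp, so the ranges overlapped. This comparison is a description only, since passing the threshold in all 6 lists itself favours strong peaks. In each library the median of the strongest fold at the 6 members was 5.74, 5.80 and 6.49 (dark) and 5.47, 5.44 and 6.12 (blue). Over the 740 protein-coding genes present in all libraries it was 4.41, 4.51 and 4.31 (dark) and 3.54, 3.75 and 3.65 (blue). The 6 members include MYB109, whose strongest summits lay outside the gene and closer to a neighbouring gene. A median without MYB109 was not computed.

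**Figure D3:**
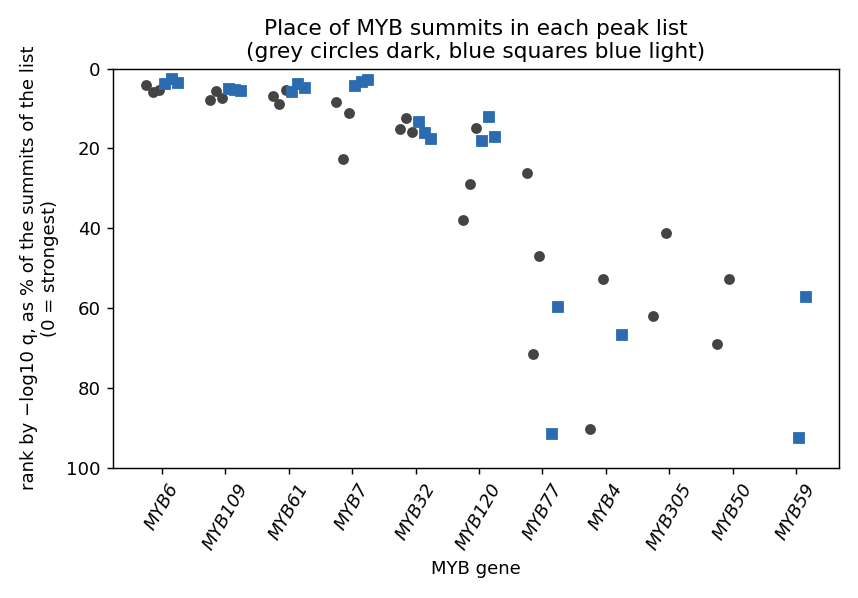
Place of the strongest summit at each of the 11 bound MYB genes in each peak list, ranked by the authors' −log10 q and given as a percentage of the summits of that list (vertical axis, 0 at the top is the strongest), for dark (grey circles) and blue (blue squares) libraries. MYB6, MYB109 and MYB61 lie within the first 8.96% of every list, MYB7 within the first 22.7%, and the members absent from some libraries spread from 26.1% to 92.5%.

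MAC3A summits at MYB genes lay mostly inside the gene. Of 67 summits at members over the 6 libraries, 55 fell in the gene body, which was 82.6 ± 7.98% per dark library and 82.5 ± 6.02% per blue library (SD, n = 3 each). Over all pairs of a summit and a protein-coding gene within 1 kb the shares were 56.3 ± 1.39% and 51.1 ± 0.194%. A summit between close neighbours is counted for each of them, and among the member summits such a protein-coding neighbour was found at MYB109 and MYB120. A summit inside a gene thus also counts as outside each neighbour within 1 kb, which lowers the share of pairs. Counted per summit, 79.1% of all summits lay inside a gene of any type, so the pair shares are not a like background for the members. At 12 of the 17 members every summit was in the body, at MYB109 and MYB30 every summit was outside, and at MYB4, MYB77 and MYB305 both occurred. The annotation used gives no strand, so the end of the gene at which a summit lay is given by coordinate, not as start or terminus. The MYB genes with a summit were not longer than the others, with a median length of 1695 bp against 1785 bp for members with none and 2078 bp for all protein-coding genes.

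**Figure D4:**
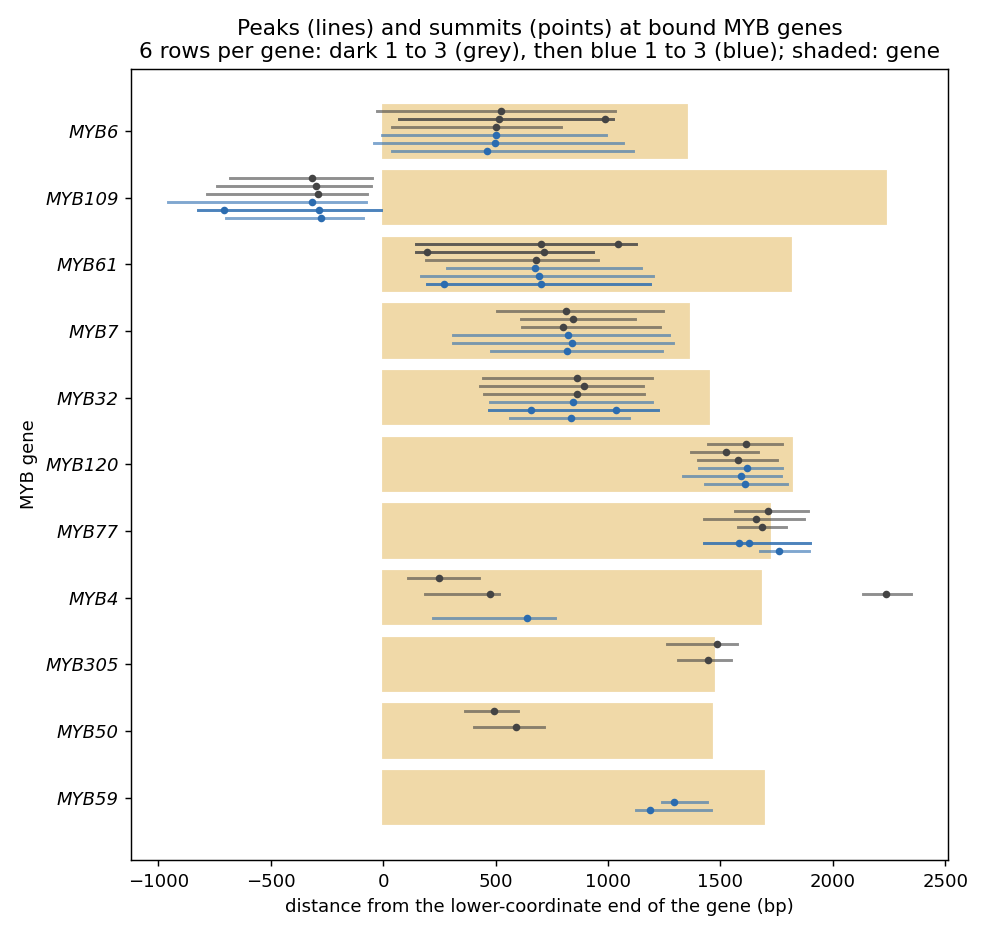
Peaks (lines) and summits (points) at the 11 bound MYB genes, plotted by distance in bp from the lower-coordinate end of each gene, whose body is shaded. Each gene has 6 rows, for dark replicates 1 to 3 (grey) and blue replicates 1 to 3 (blue), and the summits line up across libraries at MYB6, MYB61 and MYB7, within 60, 40 and 45 bp.

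The 98 members with no listed summit were not close misses by position. Their closest summit in any library lay at a median of 13209 bp, and 3 of them, MYB96, MYB80 and MYB17, had one within 3 kb. MYB80, a regulator of tapetum development, had summits 1878 and 1953 bp away in blue replicates 3 and 2, which made it bound in blue light when the window was widened to 3 kb. The outermost summit inside the 1 kb window was 710 bp from MYB109. The lists end near a −log10 q of 2, so a gene with no listed summit had none that passed the authors' threshold at the depth of that library.

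Of 35 genes in 4 related lists, 3 were bound in both conditions, which is 8.57% beside 4.16% of all genes. The lists hold R2R3 genes under another symbol, MYB partners and small MYB proteins, and flavonoid and glucosinolate pathway genes that MYB factors control. The 3 were FLP, an R2R3 gene, and the pathway genes LDOX and UGT74B1. None of the 12 listed partners and small MYB proteins had a summit in any library, where 13.7% of all genes had one. These were the bHLH genes TT8, GL3, EGL3 and MYC1, the WD40 gene TTG1, the single-repeat inhibitor genes CPC, TRY and their 3 relatives, the repressor gene MYBL2, and CDC5. Of 6 further R2R3 genes listed under another symbol, FLP, which limits divisions in the stomatal lineage, was bound in both conditions, with 2 dark and 2 blue libraries and folds from 2.68 to 3.36. The anthocyanin regulator PAP1, the seed coat regulator TT2 and the leaf polarity gene AS1 had no summit. Among 8 flavonoid pathway genes that MYB factors control, LDOX, which makes anthocyanidins, had a summit in all 6 libraries with folds from 8.80 to 12.3, and the other 7, from TT4 (chalcone synthase) to BAN, had no summit. Among 9 glucosinolate pathway genes UGT74B1, a glucosyltransferase of the core pathway, was bound with 2 dark and 3 blue libraries and folds from 2.90 to 4.21, and the other 8 had none.

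Some MYB genes outside the symbol rule were added once the annotation had been read. Of 10 genes that carry a MYB number as another name, FLP alone had a summit, beside 13.7% of all genes. FLP, PAP1, AS1, TDF1 and TT2 are also among the R2R3 genes counted above, so FLP is the same gene reported there. The genes not counted there, HOS10, AtMYB103, RAX2, LAF1 and MYBR1, had no summit. LAF1 acts in phytochrome A signalling, and MYBR1 is known as MYB44. Of 6 genes with more repeats, MYB3R-4, an activator of genes of cell division, was bound in the dark, with 2 dark libraries and 1 blue library and folds from 2.66 to 2.84. Side by side with other transcription factor families, without a test, 9 of 67 WRKY genes were bound in the dark (13.4%) and 10 in blue light (14.9%). Of 81 NAC genes 5 were bound in the dark (6.17%) and 10 in blue light (12.3%), beside 5.62% and 7.37% of all genes.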

How the data were processed

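Build TAIR10 and the tools MACS2 2.1.1, Bowtie2, SAMtools and ChIPseeker are named, per the submitters' processing notes. The sources used here give neither parameters nor the control behind each list. Each MAC3A library has its own list, not pooled. The authors' deposited fold is a ratio of signal at a summit to the caller's local background, and the deposited −log10 q is adjusted within each library. Both served to order or select peaks inside one list. Read totals are unknown, so no interval that needs depth is given.

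Peaks on chromosomes 1 to 5 were used, with every summit of a peak, counted from 1. A summit was assigned to each gene whose body or 1 kb flanks held it. The gene table (RefSeq, TAIR10.1) gave names and distances, without strand, and printed coordinates come from the peak files. As a check, 79.1% of summits fell in genes unshifted and 63.8% to 77.6% after shifts of 200 to 5000 bp. Where a gene had several summits in a library, the strongest was the one with the highest −log10 q. Promoter and protein sequences were not used here, and the planned motif search was not run.

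Conditions were compared over libraries by an exact permutation test, two-sided. Member counts take no test and stand beside the share over all protein-coding genes. The genes named are MAC3A, the bound members, those with a summit in 1 library of a condition, and the bound genes of each related list, with some unbound genes of known role as examples. The MYB genes, 7 role lists and 4 related lists were chosen with earlier results of these data known. Assignment was tested on 200 simulated positions, all of which were placed correctly. Alternatives covered peak thresholds, list length, window, assignment, membership, the number of libraries required and each library left out. Python 3.11.15, pandas 2.3.3 and numpy 2.4.6 were used.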

Additional observations from a re-analysis of the deposited data

How the results depend on the processing

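The number of members bound in the dark ran from 7 to 13, in blue light from 6 to 14 and in both from 5 to 10 over the alternatives. A single change passed 1.5 times the reported value, the 14 members in blue light when 1 of 3 libraries was enough. With each library left out in turn, both remaining libraries of its condition had to carry a summit. A member with a summit in exactly 2 of 3 libraries therefore lost its call by rule when either was left out. Under this rule the counts were 7 to 10 in the dark, 6 to 8 in blue light and 6 to 7 in both. The difference in members per library (-0.67) ran from -2.00 at a fold of at least 3 to 0, with 3 kb at either end or without blue replicate 1, and no alternative turned its sign or passed the threshold (exact permutation tests, two-sided, p from 0.30 to 1). It was -0.67 with the replicate block as well (exact permutation over the 3 pairs, two-sided, p = 1, smallest possible 0.25). Whether equal replicate numbers mark paired libraries is not given. The deviations of equal numbers correlated over all protein-coding genes at -0.01, -0.01 and 0.02, and those of unequal numbers at -0.01 to 0.03. Such values show no sign of pairing, but they cannot tell whether libraries were prepared together. Strongest member summits inside the body made up 81.5% per library on average and 80.0% to 84.8% over the alternatives run. With only peaks of −log10 q 5 or more, 7 members were bound in the dark and 6 in blue light. The bound share of all protein-coding genes was not counted under the alternatives. The share of all genes with a summit in a library was 3.24% to 4.54% under this limit. With 3 kb at either end it was 9.65% to 13.8%, so member counts under different settings have unlike backgrounds. Read totals were not used here, so a difference in depth between the conditions was met only through list length and peak thresholds.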
